A study of Mus musculus with 12 samples.

Results

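The genes described here encode subunits of RNA polymerases I, II and III. They were chosen by name: every probe set whose only gene symbol begins with Polr1, Polr2 or Polr3 followed by a letter was taken, across all 4 groups of arrays. That gave 54 of the 45037 probe sets that are not controls, for 25 of the 18193 genes on the array. A gene with several probe sets was taken from the one of highest mean signal, and all 25 passed the filter on low values, which kept 13156 genes. Polr2k and Polr2l have no probe set that names them alone and are therefore not among the 25.

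RNA polymerase I transcribes the large ribosomal RNA precursor, RNA polymerase II transcribes messenger RNA precursors, and RNA polymerase III transcribes transfer RNA, 5S ribosomal RNA and other short RNAs. Each enzyme has a pair of large catalytic subunits and smaller subunits around them; some of the small ones are built into all of the enzymes, others into polymerases I and III, and the rest into one enzyme alone. T cells that leave quiescence enlarge and raise their synthesis of RNA and protein before they divide.

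The cells were CD8 T cells of male mice, enriched from spleen and profiled on Affymetrix mouse arrays, 12 in all. The KO T6 group carried Cd4-Cre/Scapfl/fl, so that Cre driven by the Cd4 promoter deletes Scap in T cells, and was activated for 6 h with anti-CD3 bound to the plate and anti-CD28 in solution. The WT T6 group carried Cd4-Cre/Scap+/+ and was activated in the same way; the KO T0 and WT T0 groups were the quiescent cells of each genotype. The controls carry the Cre transgene too and were littermates, each group had 3 arrays labelled as biological replicates, and Scap encodes the escort protein that SREBP transcription factors need to be processed.

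Values are given as log2(signal + 16), where signal is the deposited intensity, and a difference is given on that scale with its standard error (SE) from limma. A gene rose or fell where its Benjamini-Hochberg adjusted p over the 13156 genes was under 0.05. The level of one gene cannot be set against that of another, because their probes differ. Every array had been scaled to the same mean, so the values compare shares of the RNA on an array, and in these bulk samples fewer cells of a type and less RNA per cell cannot be told apart.

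Arrays of one group correlated at 0.969 to 0.978 over all probe sets, and those of unlike groups at 0.949 to 0.976. The tested Scap probe set averaged 11.10 on KO T6 arrays and 11.57 on WT T6 arrays, without overlap (log2 difference -0.47, SE 0.14, adjusted p = 0.273); at T0 the difference was -0.25 (SE 0.14, adjusted p = 0.593), with overlap. Whether those probes lie in the deleted part of Scap is not given in the sources used here. Of 8 CD8 T cell markers, 6 were tested and all lay above the filter on all 12 arrays. Of 3 CD4 T cell markers, Cd4 lay below the filter on every array. The others went the other way, with Foxp3 above it on 10 arrays and Ctla4 on all 12. The summed signal of 8 tested myeloid markers was 2159 to 3780 on KO T6 arrays and 19439 to 24940 on KO T0 arrays, and 817 to 2157 on WT T6 arrays and 13518 to 18138 on WT T0 arrays. The sum of the 6 CD8 T cell markers was 41763 to 51741 on KO T6 arrays and 65654 to 74984 on KO T0 arrays, and 58904 to 67406 on WT T6 arrays and 80243 to 97604 on WT T0 arrays. The log2 difference between the 3′ and 5′ Actb probe sets, a measure of RNA integrity, averaged 0.71 ± 0.09 on KO T6 arrays and 0.36 ± 0.14 on KO T0 arrays, and 0.50 ± 0.05 on WT T6 arrays and 0.30 ± 0.08 on WT T0 arrays (SD, n = 3 each). These 3 measures move with activation, and their part in the differences below was not tested.

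The first comparison asks how subunit transcripts differ after 6 h of activation, in each genotype. Subunits that several polymerases share were higher after activation in both genotypes, together with Polr1e of polymerase I and Polr2c of polymerase II. In KO cells 7 of the 25 genes rose and 1 fell, where 10.4% of all tested genes rose and 10.4% fell. In WT cells 9 rose and 1 fell, where 11.3% of all tested genes rose and 13.8% fell. The 7 risers of KO cells were among the 9 of WT cells: Polr1c, Polr1d, Polr1e, Polr2c, Polr2e, Polr2f and Polr2h rose in both genotypes, which is 28% of the members and compares with 7.84% of all genes tested. Polr2g fell in both genotypes, Polr1b and Polr3e passed the test in WT cells, and 15 genes passed in neither. The KO count was 4 with probe sets of possible cross-match left out or with only the KO arrays fitted, and the WT count was 6 without WT T6 replicate 1 or WT T6 replicate 2. Activated arrays lay above quiescent ones without overlap for 10 genes and below them for 2 in KO cells, where 18.9% and 17.6% of all genes did, and for 13 and 3 in WT cells, where 19.2% and 23.6% did. The KO and WT comparisons share no array. All arrays were fitted together, however, and both comparisons use the same estimate of a gene's spread, so their calls are not independent. The median change of the 25 genes was 0.13 in KO cells and 0.25 in WT cells, beside -0.0036 and -0.06 for all genes tested.

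**Figure D1:**
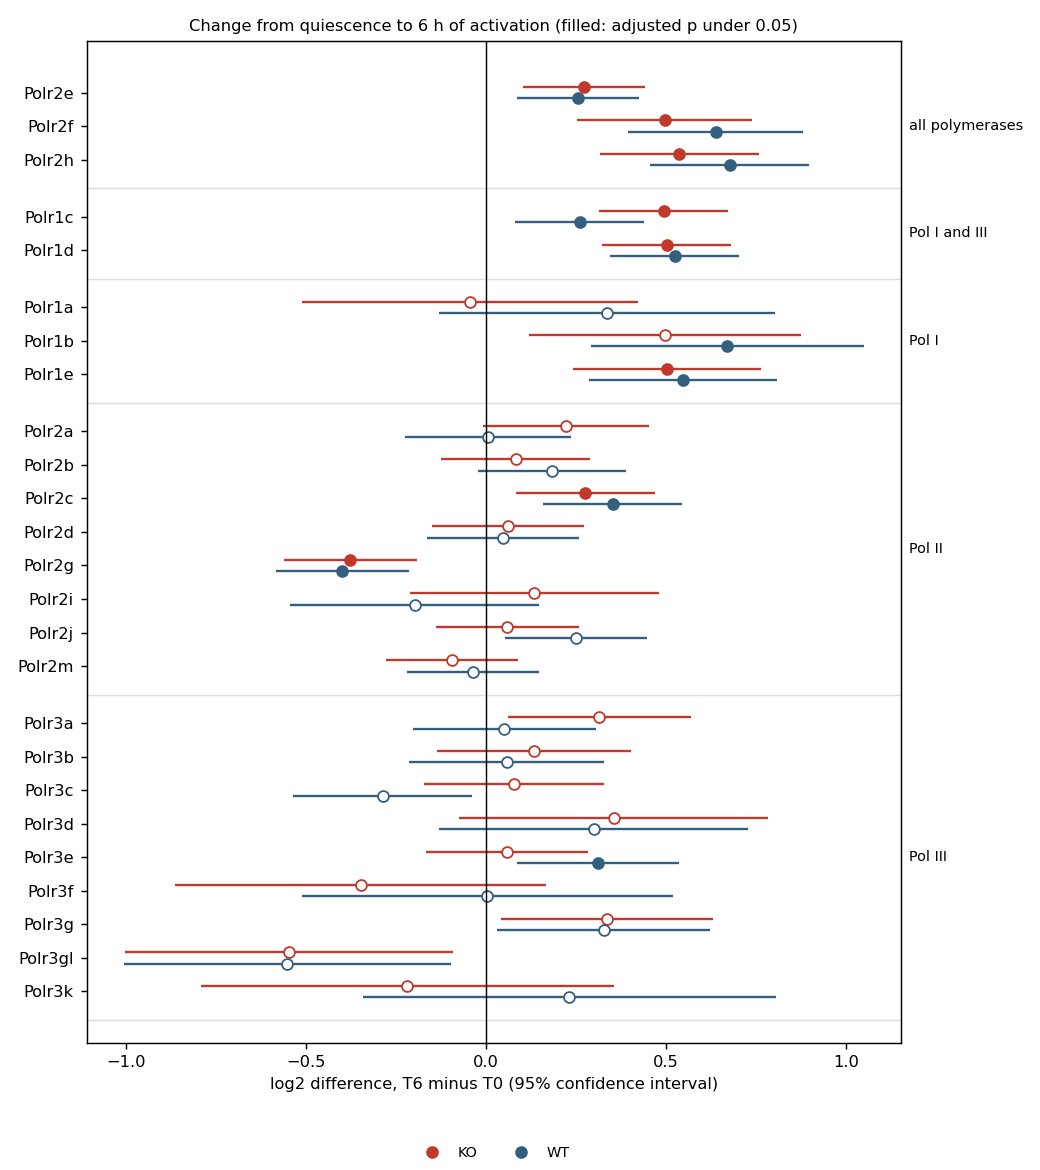
Difference T6 minus T0 on the log2(signal + 16) scale for each of the 25 genes (rows, grouped by the polymerase that holds the subunit), with KO and WT points, 95% confidence intervals as bars and filled points where the adjusted p was under 0.05. All 5 subunits shared between polymerases are filled in both genotypes and lie above 0, and Polr2g is the only filled point below 0.

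The 5 shared subunits that could be tested rose in both genotypes, with a median difference of 0.50 in KO cells and 0.52 in WT cells. With probe sets that may match further transcripts left out, the median was 0.39 in KO cells and 0.19 in WT cells, and of the 5 only Polr2f and Polr2h passed in either genotype; the probe sets of Polr1c, Polr1d and Polr2e changed with that rule. Polr2h, a small subunit of all of the polymerases, stood at 11.44, 11.19 and 11.29 on the KO T6 arrays, against 10.79, 10.80 and 10.72 on the KO T0 arrays. It stood at 11.41, 11.33 and 11.47 on the WT T6 arrays, against 10.58, 10.78 and 10.82 on the WT T0 arrays. Every activated array lay above every quiescent one. The rise was 0.54 in KO cells (SE 0.10, 1.45-fold, adjusted p = 0.00404) and 0.68 in WT cells (SE 0.10, 1.60-fold, adjusted p = 0.000935), and both calls held under all 24 alternatives tried. Polr2f, which sits beside the clamp in all of the enzymes, stood at 11.70, 11.38 and 11.64 on KO T6 arrays, against 11.11, 11.18 and 10.95 on KO T0 arrays. On WT T6 arrays it stood at 11.60, 11.55 and 11.56, against 10.85, 10.89 and 11.06 on WT T0 arrays. Again no activated array reached down to a quiescent one, with a rise of 0.50 in KO cells (SE 0.11, adjusted p = 0.00971) and 0.64 in WT cells (SE 0.11, adjusted p = 0.00222). A second, dimmer Polr2f probe set gave 0.22 and 0.58 in KO and WT cells, and the mean of both probe sets passed the test in neither genotype (0.36 and 0.61).

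Polr2e, the remaining shared member of all of the enzymes, which contacts the downstream DNA, differed less. It stood at 11.52, 11.45 and 11.50 on KO T6 arrays, against 11.22, 11.18 and 11.25 on KO T0 arrays. It stood at 11.50, 11.45 and 11.51 on WT T6 arrays, against 11.18, 11.31 and 11.21 on WT T0 arrays. The arrays did not overlap, and the rise was 0.27 in KO cells (SE 0.08, adjusted p = 0.0287) and 0.26 in WT cells (SE 0.08, adjusted p = 0.0330). This rise belongs to 1 probe set: a second above the filter gave 0.00 in KO cells and 0.19 in WT cells, and another, dim one gave -0.10 and -0.65. With the mean of all probe sets the differences were 0.06 in KO cells and -0.07 in WT cells, and the KO or the WT call was also lost when any single array of that genotype was left out, except KO T6 replicate 2 or WT T0 replicate 2.

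Polr1c and Polr1d form the pair on which polymerases I and III are assembled, and both rose in both genotypes. Polr1d stood at 13.02, 12.95 and 12.91 on KO T6 arrays, against 12.52, 12.45 and 12.41 on KO T0 arrays. On WT T6 arrays it stood at 13.15, 13.06 and 13.05, against 12.59, 12.48 and 12.61 on WT T0 arrays. Activated and quiescent arrays did not overlap. The rise was 0.50 in KO cells (SE 0.08, adjusted p = 0.00181) and 0.52 in WT cells (SE 0.08, adjusted p = 0.00117). Of 3 further Polr1d probe sets, 2 rose in both genotypes when each was tested alone (0.78 and 0.48 in KO cells, 0.63 and 0.71 in WT cells) and 1 did not (0.06 and 0.17).

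Polr1c stood at 11.31, 11.34 and 11.34 on KO T6 arrays, against 10.82, 10.85 and 10.84 on KO T0 arrays. It stood at 11.25, 11.24 and 11.15 on WT T6 arrays, against 10.84, 10.97 and 11.05 on WT T0 arrays. Neither pair of groups overlapped, and the SD was 0.02 on KO T6 arrays and 0.01 on KO T0 arrays. The rise was 0.49 in KO cells (SE 0.08, adjusted p = 0.00198) and 0.26 in WT cells (SE 0.08, adjusted p = 0.0390); the difference between these changes was 0.23 (SE 0.11) and did not pass. The WT call was kept under 10 of the 24 alternatives and was lost, among others, without any 1 of WT T6 replicates 1, 2 and 3 or WT T0 replicates 1 and 2, and without any 1 of KO T6 replicates 1 and 3 or KO T0 replicates 1 and 3, with values of 0.21 to 0.29.

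**Figure D2:**
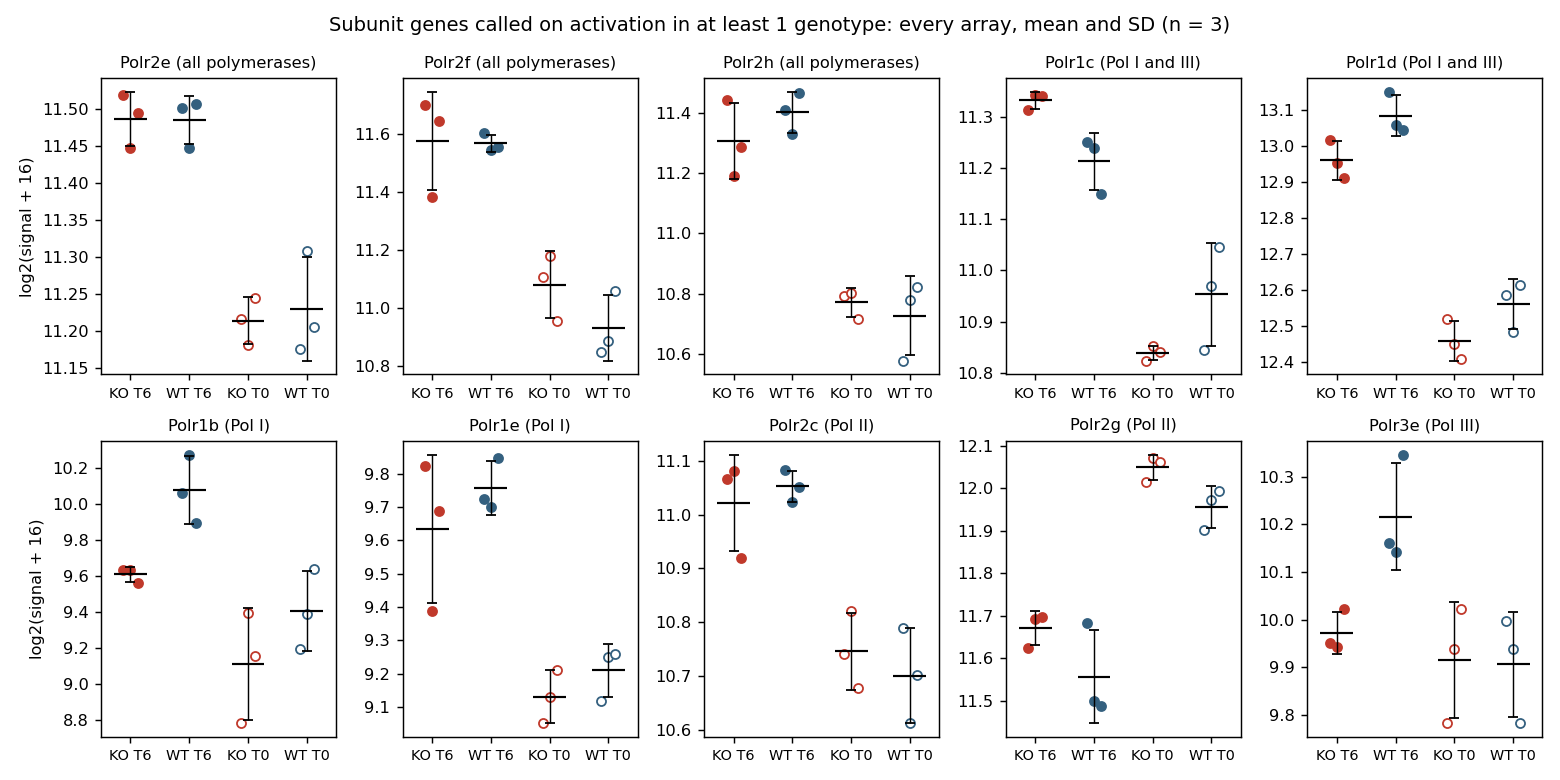
Log2(signal + 16) on every array (points) for the subunit genes that passed the test on activation in at least 1 genotype, with the group mean as a line and its SD as a bar (n = 3), in the order KO T6, WT T6, KO T0, WT T0. The activated arrays lie above the quiescent arrays of their genotype in each panel except those of Polr2g, where they lie below, and of Polr3e, where the KO groups overlap.

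Promoter sequence is shown for 3 of the shared subunits that rose in both genotypes, because these members moved together and their windows hold a motif searched for. RefSeq windows of assembly GRCm38.p6, from 250 bases before to 50 bases after a gene's start, matched 21 of the 25 genes. In the lines that follow, each is written 5′ to 3′ on the gene's strand, and capitals mark only the motif named for that window. The Polr2h window, chr16:20717576-20717875 on the plus strand, holds the E-box CACGTG, the site of Myc and Max, at bases 24 to 29 after the start; TGCGCA, the core of the NRF1 site, stands in it too, in lower case, at bases -42 to -37, and a second Polr2h window is not shown.
Polr2h: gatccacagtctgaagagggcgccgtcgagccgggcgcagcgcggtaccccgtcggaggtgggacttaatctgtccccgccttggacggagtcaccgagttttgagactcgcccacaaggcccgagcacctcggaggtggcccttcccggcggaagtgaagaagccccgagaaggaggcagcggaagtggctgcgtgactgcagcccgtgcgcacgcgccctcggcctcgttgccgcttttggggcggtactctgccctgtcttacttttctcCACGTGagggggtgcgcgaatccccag
The Polr2f window, chr15:79141075-79141374 on the plus strand, holds the ETS motif CCGGAAG at bases -17 to -11.
Polr2f: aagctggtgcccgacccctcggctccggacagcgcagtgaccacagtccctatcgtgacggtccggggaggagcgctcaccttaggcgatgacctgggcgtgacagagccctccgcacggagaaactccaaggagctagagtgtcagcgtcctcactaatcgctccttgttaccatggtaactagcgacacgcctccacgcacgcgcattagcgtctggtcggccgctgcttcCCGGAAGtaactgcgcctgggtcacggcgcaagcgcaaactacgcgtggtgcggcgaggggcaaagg
The Polr1c window, chr17:46247996-46248295 on the minus strand, holds the same ETS motif at bases -42 to -36.
Polr1c: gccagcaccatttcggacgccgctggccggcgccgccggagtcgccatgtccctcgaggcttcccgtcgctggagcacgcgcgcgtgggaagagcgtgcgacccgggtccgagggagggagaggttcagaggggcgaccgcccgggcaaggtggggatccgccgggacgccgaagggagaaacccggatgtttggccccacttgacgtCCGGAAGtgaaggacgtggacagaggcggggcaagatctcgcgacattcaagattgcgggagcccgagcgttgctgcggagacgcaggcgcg
On either strand, CCGGAAG stood in the windows of 7 of the 21 members, which is 33.3%, beside 9.928% of 27025 genes with a window. It stood in 4 of the 7 that rose in both genotypes (Polr1c, Polr1e, Polr2c and Polr2f) and in 3 of the 12 with a window that were called in neither genotype. CACGTG stood in 4 of the 21 (Polr2h, Polr3c, Polr3e and Polr3gl), which is 19.0%, beside 8.093% of all genes, and 1 of those 4, Polr2h, rose in both genotypes. TGCGCA stood in 3 members (14.3%, beside 8.792%), and ATGGCGG, the core of the YY1 site, in 0 (beside 4.692%). CCAAT, bound by NF-Y, stood in 7 members (33.3%, beside 41.058%), and TATAAA in 2 (9.524%, beside 15.667%). The genes with a window include noncoding ones, none of these motifs contains another, and a match describes letters only.

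Of the 3 subunits of polymerase I alone, Polr1e rose in both genotypes, Polr1b passed in WT cells and Polr1a in neither. Polr1e, part of the subunit pair that aids initiation and elongation, stood at 9.82, 9.39 and 9.69 on KO T6 arrays, against 9.05, 9.13 and 9.21 on KO T0 arrays. It stood at 9.72, 9.70 and 9.85 on WT T6 arrays, against 9.12, 9.25 and 9.26 on WT T0 arrays. The groups did not overlap in either genotype, and the rise was 0.50 in KO cells (SE 0.12, adjusted p = 0.0126) and 0.55 in WT cells (SE 0.12, adjusted p = 0.00740). A second Polr1e probe set gave 0.44 in KO cells, which did not pass alone, and 0.71 in WT cells, which did. The tested probe sets of Polr1d and Polr1e have names ending in _x_at and those of Polr1c and Polr2e in _s_at, which mark probes that may match further transcripts. With these left out, the KO values of all 4 genes no longer passed (0.06 for Polr1d, 0.44 for Polr1e, 0.39 for Polr1c and 0.00 for Polr2e), nor did the WT values of Polr1d, Polr1c and Polr2e (0.17, 0.17 and 0.19).

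Polr1b, the second-largest catalytic subunit of polymerase I, stood at 9.63, 9.63 and 9.56 on KO T6 arrays, against 8.78, 9.40 and 9.16 on KO T0 arrays. It stood at 10.06, 10.27 and 9.89 on WT T6 arrays, against 9.20, 9.39 and 9.64 on WT T0 arrays. Activated arrays lay above quiescent ones in both genotypes. The difference was 0.50 in KO cells (SE 0.17, adjusted p = 0.0654), which did not pass, and 0.67 in WT cells (SE 0.17, adjusted p = 0.0167), which did; the WT difference no longer passed once WT T0 replicate 1 or WT T6 replicate 2 was left out (0.57 each), and the KO difference passed under 6 of 24 alternatives, among them the fit with the replicate number as a block (0.50, adjusted p = 0.0435) and the fit without KO T0 replicate 2 (0.64).

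Polr1a, the largest catalytic subunit of polymerase I, stood at 9.05, 8.75 and 8.12 on KO T6 arrays, against 8.69, 8.55 and 8.81 on KO T0 arrays. It stood at 9.48, 9.66 and 9.31 on WT T6 arrays, against 8.97, 9.27 and 9.19 on WT T0 arrays. The KO groups overlapped and the WT groups did not. The difference was -0.04 in KO cells (SE 0.21, adjusted p = 0.913) and 0.34 in WT cells (SE 0.21, adjusted p = 0.286). Other Polr1a probe sets above the filter disagreed with the one tested in KO cells and had the same sign in WT cells. Of these, 1 rose in both genotypes when tested alone (0.45 in KO cells and 0.47 in WT cells), and another gave 0.29 and 0.38 without passing.

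Of the 8 subunits of polymerase II alone, Polr2c rose and Polr2g fell in both genotypes, and the other 6 passed in neither. Polr2c, the partner of Polr2j in the assembly platform of polymerase II, stood at 11.07, 11.08 and 10.92 on KO T6 arrays, against 10.74, 10.82 and 10.68 on KO T0 arrays. It stood at 11.08, 11.02 and 11.05 on WT T6 arrays, against 10.79, 10.61 and 10.70 on WT T0 arrays. Neither comparison overlapped. The rise was 0.28 in KO cells (SE 0.09, adjusted p = 0.0476) and 0.35 in WT cells (SE 0.09, adjusted p = 0.0146). The KO call was kept under 9 of 24 alternatives and was lost, at 0.24 to 0.33, when any 1 of the 6 KO arrays, any 1 of the 3 WT T6 arrays, or WT T0 replicate 2 or 3 was left out; the WT difference did not pass without WT T0 replicate 2 (0.31) or WT T6 replicate 1 (0.34).

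Polr2g, which with Polr2d forms the stalk of polymerase II, moved the other way. It stood at 11.63, 11.69 and 11.70 on KO T6 arrays, against 12.01, 12.07 and 12.06 on KO T0 arrays. It stood at 11.68, 11.50 and 11.49 on WT T6 arrays, against 11.90, 11.97 and 11.99 on WT T0 arrays. All activated arrays lay below all quiescent ones. The log2 difference was -0.38 in KO cells (SE 0.08, adjusted p = 0.00952) and -0.40 in WT cells (SE 0.08, adjusted p = 0.00623), and both calls held under all 24 alternatives. Polr2d, its stalk partner, differed by 0.06 in KO cells and 0.05 in WT cells (SE 0.09 each).

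Neither catalytic subunit of polymerase II passed the test. Polr2a, the largest subunit, which carries the C-terminal repeat domain, stood at 12.41, 12.23 and 12.42 on KO T6 arrays, against 12.31, 11.96 and 12.12 on KO T0 arrays. It stood at 12.16, 12.27 and 12.29 on WT T6 arrays, against 12.27, 12.21 and 12.23 on WT T0 arrays. Both pairs of groups overlapped, with differences of 0.22 in KO cells (95% confidence interval -0.01 to 0.45) and 0.01 in WT cells (-0.23 to 0.24). A second, dimmer Polr2a probe set gave -0.09 in KO cells and 0.57 in WT cells, and the mean of both gave 0.07 and 0.29, of which neither passed. Polr2b, the second-largest subunit, differed by 0.08 in KO cells and 0.18 in WT cells (adjusted p = 0.597 and 0.186). Polr2i, a small subunit that takes part in proofreading in yeast, differed by 0.13 and -0.20, and Polr2m, a protein that associates with a part of polymerase II and holds it back from initiation, by -0.09 and -0.04, in KO and WT cells. Polr2j differed by 0.06 in KO cells and 0.25 in WT cells (adjusted p = 0.697 and 0.0645). The median over the 8 was 0.07 in KO cells and 0.03 in WT cells.

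Of the 9 subunits of polymerase III alone, 0 passed in KO cells and 1, Polr3e, in WT cells. Polr3e, which with Polr3d forms a module for initiation and termination, stood at 9.95, 9.94 and 10.02 on KO T6 arrays, against 9.78, 9.94 and 10.02 on KO T0 arrays. It stood at 10.16, 10.14 and 10.35 on WT T6 arrays, against 10.00, 9.94 and 9.78 on WT T0 arrays. The KO groups overlapped and the WT groups did not, with differences of 0.06 (SE 0.10, adjusted p = 0.743) and 0.31 (SE 0.10, adjusted p = 0.0468). The WT call was kept under 9 of 24 alternatives; it was lost without any 1 of the 6 WT arrays (0.25 to 0.36), without any 1 of KO T6 replicates 1, 2 and 3 and KO T0 replicates 2 and 3, and with the mean of both probe sets (0.08).

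The other polymerase III subunits passed in neither genotype. Polr3a and Polr3b, the catalytic pair, differed by 0.32 and 0.13 in KO cells and by 0.05 and 0.06 in WT cells; the Polr3a difference in KO cells (adjusted p = 0.0810) passed without KO T6 replicate 2 (0.40). Polr3g and Polr3gl are alternative versions of one subunit. Polr3g stood at 8.95, 8.65 and 8.83 on KO T6 arrays, against 8.72, 8.50 and 8.21 on KO T0 arrays, and at 9.17, 8.99 and 9.08 on WT T6 arrays, against 8.79, 8.77 and 8.69 on WT T0 arrays. Polr3gl stood at 8.59, 8.06 and 8.93 on KO T6 arrays, against 9.15, 9.05 and 9.03 on KO T0 arrays, and at 8.68, 8.18 and 8.50 on WT T6 arrays, against 9.03, 8.85 and 9.13 on WT T0 arrays. The pair had opposite signs: Polr3g differed by 0.34 in KO cells and 0.33 in WT cells (SE 0.13, adjusted p = 0.106 and 0.101), and Polr3gl by -0.55 in each (SE 0.20, adjusted p = 0.0888 in KO cells and 0.0754 in WT cells). None of these 4 differences passed. In WT cells that of Polr3gl passed under 6 of 24 alternatives. Among them were array weights, the replicate number as a block and the fits without KO T6 replicate 2 or 3 (-0.55). The WT difference of Polr3g passed with quantile normalization. In KO cells that of Polr3gl passed, for example, without KO T6 replicate 3 (-0.75), and that of Polr3g without KO T0 replicate 1 (0.46).

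Polr3c and Polr3f belong with Polr3g to the module that opens promoters. Polr3c differed by 0.08 in KO cells and -0.29 in WT cells. The WT difference passed under 3 of 24 alternatives: without WT T0 replicate 1 (-0.39), with array weights and with the mean of its probe sets. Polr3f differed by -0.35 and 0.00 in KO and WT cells, while another of its 5 probe sets fell in both genotypes when tested alone (-0.51 and -0.50). Polr3d differed by 0.35 and 0.30, and its second probe set rose in both genotypes when tested alone (0.62 in KO cells and 0.53 in WT cells). Polr3k, the RNA cleavage subunit, differed by -0.22 and 0.23 with arrays between 9.53 and 10.64. The median over the 9 polymerase III genes was 0.08 in KO cells and 0.06 in WT cells.

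**Figure D3:**
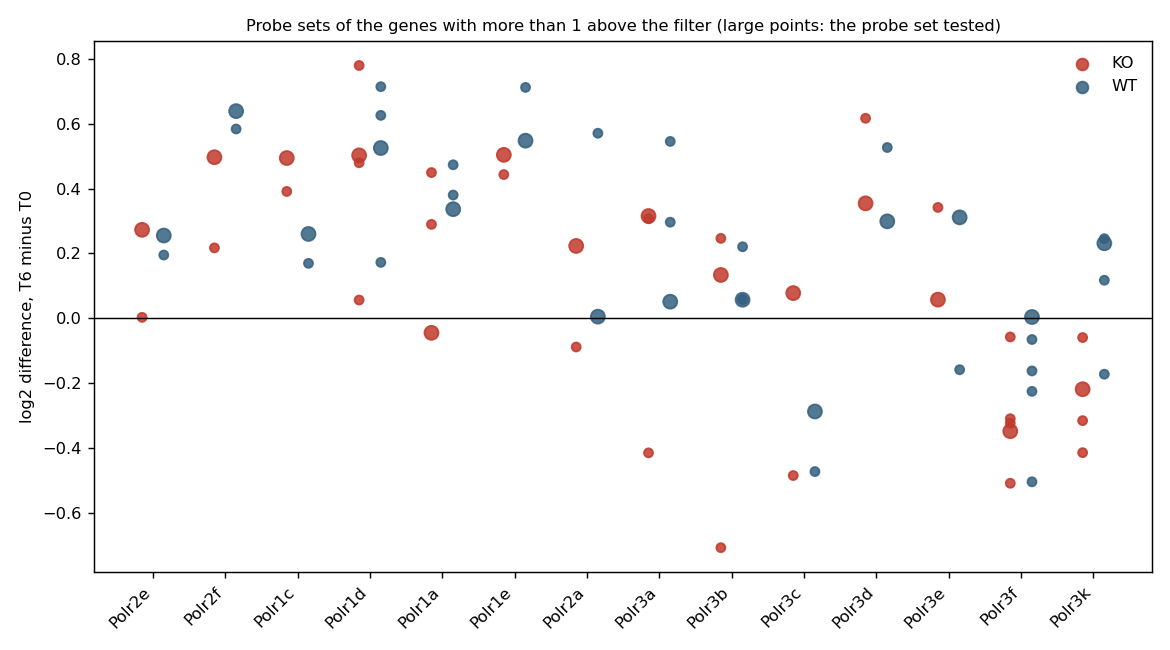
Difference T6 minus T0 on the log2(signal + 16) scale for every probe set above the filter, for the genes with more than 1 such probe set, with KO points to the left of WT points and large points for the probe set that was tested. The probe sets of Polr1d, Polr1e and Polr1c all lie above 0, whereas those of Polr1a, Polr2a, Polr3a, Polr3b, Polr3c, Polr3e, Polr3f and Polr3k lie on both sides of it in at least 1 genotype.

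Set against the subunits of polymerase II alone or of polymerase III alone on the same arrays, the shared subunits stood higher after activation. This contrast was not planned. It is built from the values given above, so it restates those differences and adds no separate support. The mean of the 5 shared subunits minus the mean of the 8 polymerase II subunits was 0.20 ± 0.11 on KO T6 arrays, 0.24 ± 0.04 on WT T6 arrays, -0.22 ± 0.02 on KO T0 arrays and -0.21 ± 0.06 on WT T0 arrays (SD, n = 3 each). It was thus larger at T6 by 0.42 in KO cells and 0.45 in WT cells, with no overlap between activated and quiescent arrays. Against the 9 polymerase III subunits it was 2.34 ± 0.12 on KO T6 arrays, 2.17 ± 0.06 on WT T6 arrays, 1.90 ± 0.07 on KO T0 arrays and 1.75 ± 0.09 on WT T0 arrays, larger at T6 by 0.44 in KO cells and 0.42 in WT cells. Both contrasts rest on the probe sets of Polr1c, Polr1d and Polr2e that may match further transcripts. Without such probe sets, a setting added after seeing the data, the first was larger at T6 by 0.25 in KO cells and 0.34 in WT cells, and the second by 0.27 and 0.32, again without overlap within a genotype. The level of these contrasts depends on the probes, and only their change can be read. Of the 20 subunits that belong to 1 polymerase, 2 rose and 1 fell in KO cells and 4 rose and 1 fell in WT cells, with medians of 0.08 and 0.12. Of all tested genes 10.4% rose and 10.4% fell in KO cells, and 11.3% rose and 13.8% fell in WT cells, so the KO count is near that background. The 3 of polymerase I alone, against which no contrast was taken, had medians of 0.50 in KO cells and 0.55 in WT cells. Those of the shared subunits were 0.50 and 0.52. Values of the 3 ranged from -0.04 to 0.50 in KO cells and from 0.34 to 0.67 in WT cells. Of the 3, 1 rose in KO cells and 2 in WT cells. Cd3eap, a polymerase I subunit by another name, is not among the 20 and is counted with the lists below.

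**Figure D4:**
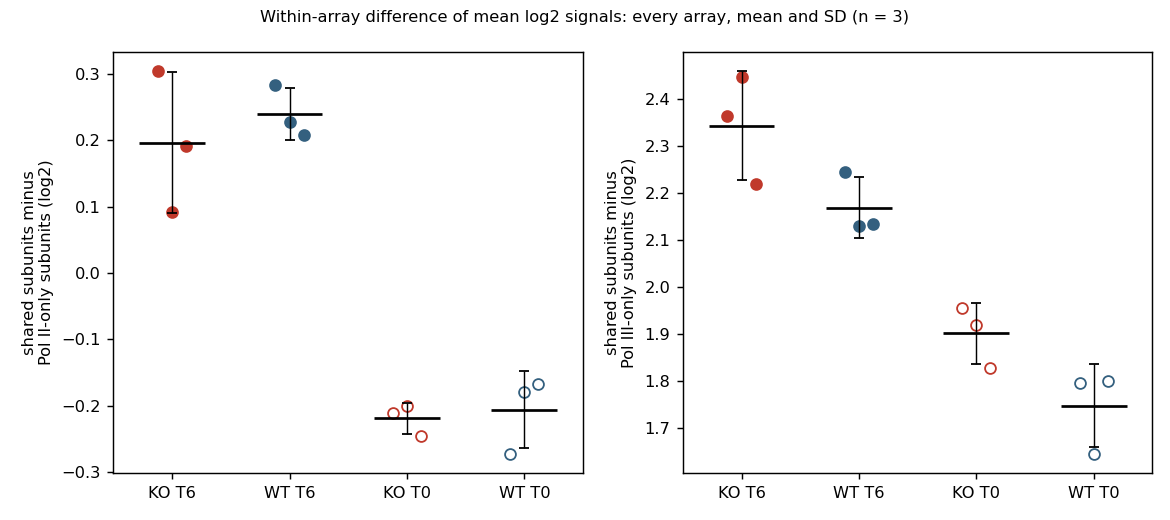
Mean log2(signal + 16) of the 5 shared subunits minus that of the 8 subunits of polymerase II (left) or the 9 of polymerase III (right) on every array (points), with the group mean as a line and its SD as a bar (n = 3). In both panels all 6 activated arrays lie above all 6 quiescent arrays.

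The second comparison asks whether loss of Scap changed subunit transcripts. At T6, 0 of the 25 genes passed, where 0.0988% of all genes tested did (0.0304% rose and 0.0684% fell); 4 had an unadjusted limma p under 0.05, all of them lower in KO cells, which is beside 11.8% of all genes. At T0, 0 of 25 passed, where 0.038% of all genes did, and 2 had an unadjusted p under 0.05, beside 9.78% of all genes. A difference that did not pass is not thereby shown to be absent. The median difference, KO minus WT, was -0.09 at T6 and -0.06 at T0, beside 0.04 and -0.0001 for all genes tested. At T6, 1 gene was higher and 7 were lower in KO cells without overlap, where 10.8% and 8.01% of all genes were; at T0 the counts were 2 and 2, where 8.13% and 8.51% of all genes were.

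Polr1a had the largest difference of the 25 at T6. Its KO T6 arrays (9.05, 8.75 and 8.12) all lay below its WT T6 arrays (9.48, 9.66 and 9.31), and the difference was -0.84 (SE 0.21, adjusted p = 0.189). At T0 the difference was -0.46 (SE 0.21, adjusted p = 0.510), also without overlap. The other 2 Polr1a probe sets above the filter gave -0.29 and -0.14 at T6 and -0.26 and -0.05 at T0. Polr1b differed by -0.47 at T6 (SE 0.17, adjusted p = 0.341), Polr3f by -0.52 (SE 0.23, adjusted p = 0.419) and Polr3e by -0.24 (SE 0.10, adjusted p = 0.391), each without overlap. The 3′ to 5′ Actb difference was also higher on KO T6 than on WT T6 arrays (0.71 ± 0.09 and 0.50 ± 0.05). Markers differed too: without overlap, the summed signal of the myeloid markers was 2159 to 3780 on KO T6 arrays and 817 to 2157 on WT T6 arrays, and that of the CD8 T cell markers 41763 to 51741 on KO T6 arrays and 58904 to 67406 on WT T6 arrays. All 8 myeloid markers were higher in KO cells and 1, Tyrobp, passed (1.68, adjusted p = 0.0483). The summed signal of 7 tested B cell markers was 2106 to 5731 on KO T6 arrays and 687 to 1460 on WT T6 arrays. That of 4 of 5 markers of cycling cells was 5975 to 24330 on KO T6 arrays and 3547 to 6968 on WT T6 arrays, with overlap. That of 2 of 5 erythroid markers was 1238 to 18420 on KO T6 arrays and 540 to 879 on WT T6 arrays, and replicate 2 was the highest KO array of both states for erythroid and cycling markers. The part of these measures in the values was not tested.

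At T0, Polr3c stood at 9.78, 9.69 and 9.75 on KO T0 arrays, against 10.03, 10.45 and 10.24 on WT T0 arrays. The groups did not overlap, and the difference was -0.50 (SE 0.11, adjusted p = 0.256); a second Polr3c probe set gave -0.25. Polr2j stood at 11.39, 11.47 and 11.31 on KO T0 arrays, against 11.06, 11.20 and 11.26 on WT T0 arrays, a difference of 0.21 (SE 0.09, adjusted p = 0.488) without overlap. Marker sums also differed at T0 without overlap. That of the myeloid markers was 19439 to 24940 on KO T0 arrays and 13518 to 18138 on WT T0 arrays, and that of the erythroid markers was 1332 to 14374 on KO T0 arrays and 176 to 1060 on WT T0 arrays. That of the CD8 T cell markers was 65654 to 74984 on KO T0 arrays and 80243 to 97604 on WT T0 arrays. Their part in these values was not tested. The 5 shared subunits differed between genotypes by a median of 0.00 at T6 and -0.02 at T0.

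**Figure D5:**
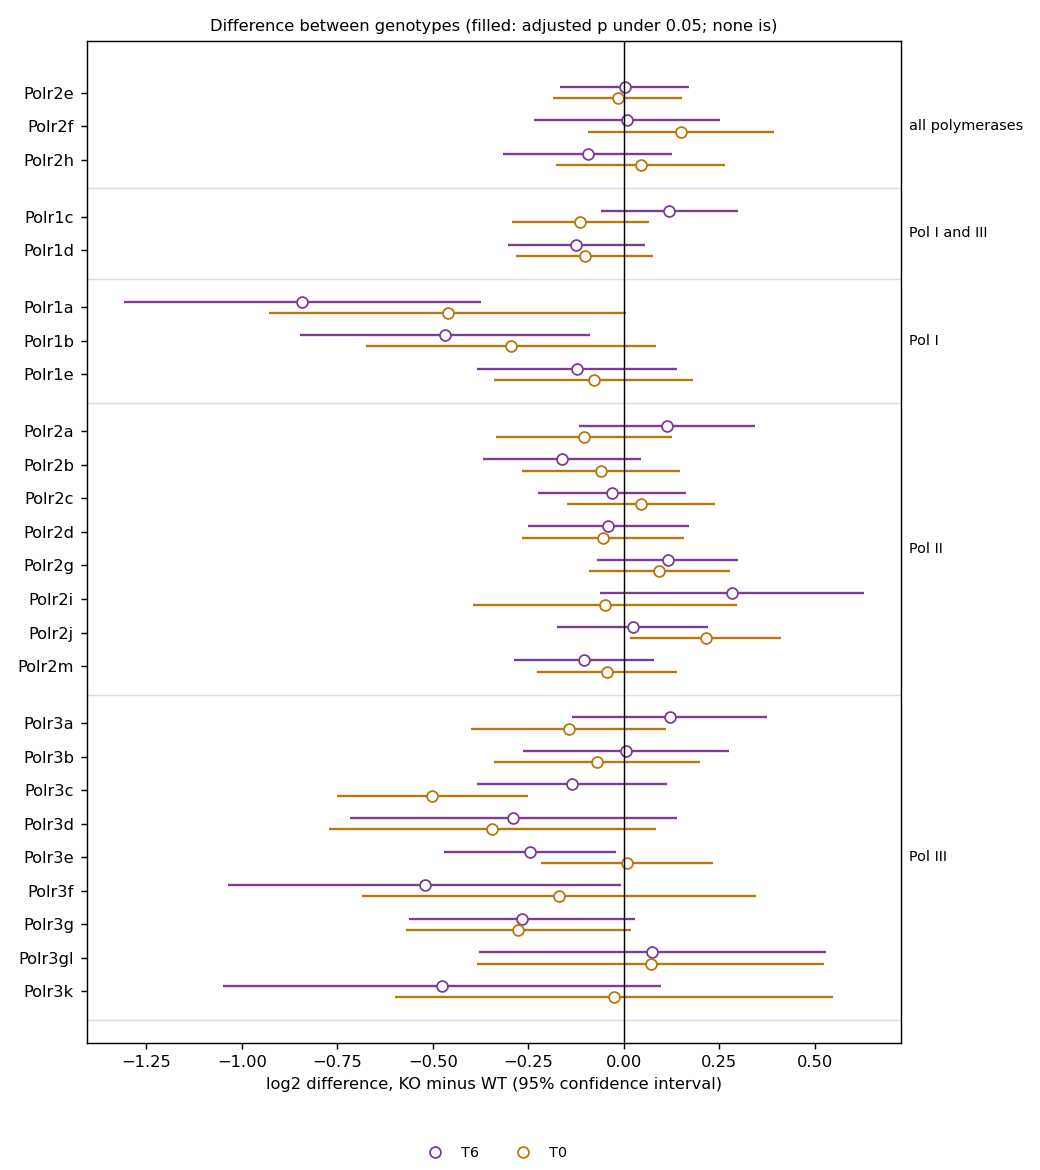
Difference KO minus WT on the log2(signal + 16) scale for each of the 25 genes at T6 and T0, with 95% confidence intervals as bars; no point is filled, since 0 genes passed. Polr1a at T6 lies farthest from 0, at -0.84.

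The third comparison asks whether activation changed a subunit differently in KO and WT cells. The difference between the changes passed for 0 of the 25 genes and 0% of all 13156 in limma. Polr3c alone had an unadjusted p under 0.05 (difference 0.36, SE 0.16), and it did not pass after adjustment, beside 4.59% of all genes. The calls of Polr1b and Polr3e in WT cells and not in KO cells are therefore not shown to differ between genotypes: the differences were -0.17 and -0.25.

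Genes that work with the polymerases were counted from lists, to be read beside the 10.4% of all genes that rose and the 10.4% that fell in KO cells, and the 11.3% and 13.8% in WT cells. Of 10 factors and further subunits of polymerase I, 3 rose in KO cells and 2 in WT cells. Rrn3, the initiation factor that joins polymerase I to its promoter, rose by 0.52 in KO cells and 0.44 in WT cells, and Cd3eap, the polymerase I subunit that pairs with Polr1e, by 0.58 and 0.56; Taf1d, of the promoter selectivity factor, rose by 0.45 in KO cells. Of 17 tested general initiation factors of polymerase II, 2 rose in KO cells and 4 in WT cells. Both subunits of factor TFIIF were among them, Gtf2f2 by 0.72 and 0.78 and Gtf2f1 by 0.39 and 0.41 in KO and WT cells, while Gtf2e2 (0.40) and Gtf2h5 (0.31) rose in WT cells; the KO count of this list, 11.8%, is near that background. The median was 0.16 in KO cells and 0.21 in WT cells for the polymerase I list, and 0.13 and 0.10 for the initiation factors, beside -0.0036 and -0.06 for all genes tested.

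Of 20 tested pausing and elongation factors of polymerase II, 3 rose in KO cells, and 5 rose and 1 fell in WT cells. Leo1, of the Paf1 complex, rose by 0.59 in KO cells and 0.56 in WT cells, Nelfe, of the pausing factor NELF, by 0.39 and 0.55, and Ccnt1, the cyclin of P-TEFb, by 0.42 and 0.50. Larp7 (0.49), which binds 7SK RNA, rose in WT cells. Of 18 polymerase III factors 1 rose and 1 fell in KO cells and 2 rose and 2 fell in WT cells: Ssb, which binds the 3′ ends of polymerase III transcripts, rose by 0.30 and 0.43, Gtf3a, the factor of 5S RNA genes, fell by 0.33 and 0.50, Gtf3c6 rose by 0.40 in WT cells and Brf1, of factor TFIIIB, fell by 0.53 there. The share that rose in KO cells was 15% for elongation and 5.56% for polymerase III factors, and in WT cells 25% and 11.1%, so the polymerase III counts are at or below the background of 10.4% and 11.3%. Of 13 assembly and import factors 2 rose in KO cells, and 4 rose and 1 fell in WT cells. The chaperone ATPase Ruvbl1 rose by 0.72 in KO cells and 0.84 in WT cells, the prefoldin Pfdn2 by 0.55 and 0.82, and Ruvbl2 (0.72) and Pfdn6 (0.39) rose in WT cells. Of 9 mitochondrial transcription genes 0 passed in KO cells (smallest adjusted p = 0.121, Tefm), and Tefm rose (0.60) and Mterf2 fell by 0.53 in WT cells. The medians were 0.05 in KO cells and 0.09 in WT cells for elongation, 0.09 and 0.18 for the polymerase III factors, 0.20 and 0.22 for assembly, and -0.01 and -0.03 for mitochondrial transcription. None of the genes on these lists passed between genotypes or in the difference between changes.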

How the data were processed

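The values are the linear signal intensity of each probe set, made by the authors with GCOS, per the submitters' processing notes; its version, the background correction and the probe summary are not given in the sources used here. The trimmed mean (percentiles 2 to 98) was 500.003 for each array, so the deposited intensities had been scaled. Array medians were 61.3 to 76.2. Of 45101 probe sets 64 were controls; 34945 had 1 gene symbol, 932 several and 9160 none (GEO's platform annotation). Log2(signal + 16) was taken, which understates changes of dim genes. A gene was its probe set of highest mean, kept if it exceeded percentile 40 on 3 or more of the arrays. limma 3.58.1 in R 4.3.3 (lmFit, eBayes, two-sided) was fitted with 4 group coefficients over 12 arrays, with 5 contrasts and Benjamini-Hochberg adjustment. After group means were subtracted, same-numbered T6 and T0 arrays correlated at 0.18, 0.46 and 0.38 in KO cells. In WT cells these values were 0.23, -0.06 and -0.11. Pairs with different numbers gave -0.40 to 0.14 in KO cells and -0.16 to 0.23 in WT cells. Same-numbered KO pairs thus had the highest KO values, narrowly for replicate 1, and same-numbered WT pairs did not stand apart. The labels do not state pairing, and these few values do not establish it. The main fit has no block, so its p-values treat T6 and T0 arrays as independent. The alternative with a block used the replicate number in both genotypes. The p-values measure the spread between these arrays, whose number limits the precision. The test was checked on simulated data. All members could be named; of each companion list, up to 4 called genes by smallest p. The members and lists were chosen with earlier results of these data known. Alternatives changed the added value, filter, scaling, probe set rule, arrays, weights and block.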

Additional observations from a re-analysis of the deposited data

How the results depend on the processing

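Over 24 alternatives, the calls of Polr2g and Polr2h on activation in both genotypes and of Polr1e in WT cells kept their direction and their side of the threshold; each other call was lost at least once. Members called on activation in KO cells numbered 8 (7 rose, 1 fell). They numbered 4 (3 rose, 1 fell) with probe sets ending _x_at or _s_at left out where a gene had another, and 4 (3 rose, 1 fell) with only the 2 groups compared, which leaves fewer arrays for the spread. Other alternatives gave 6 to 10, leaving out 1 array 6 to 8, and both KO arrays numbered 2, added after seeing the data because erythroid and cycling markers were highest there, 6 (5 rose, 1 fell). In WT cells 10 were called (9 rose, 1 fell), 7 to 12 under alternatives and 6 to 10 with 1 array left out; the 6 came without WT T6 replicate 1 or WT T6 replicate 2. Tested as probe sets, 12 and 13 passed in KO and WT cells. Without the _x_at and _s_at probe sets Polr1d gave 0.06 in KO cells and 0.17 in WT cells. Averaging the probe sets of each gene turned the WT value of Polr2e to -0.07 (-0.0668); its probe sets disagree. Calls between genotypes and in the difference of changes numbered 0 under every alternative run (0 to 0 with 1 array left out).

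Centring each array on its median raised the median WT change of all genes by 0.12, to 0.05, and that of the members to 0.37; 1909 genes rose and 1142 fell, against 1492 and 1810 with the deposited scaling. Counts on the companion lists moved by more than 1.5 times in 46 comparisons and stayed within it in 242. With the replicate number as a random block, 9 members passed in KO cells (adding Polr1b) and 12 in WT cells (adding Polr2j and Polr3gl), none was lost, and 0 passed in the other contrasts.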

Other observations

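Polr2k and Polr2l encode the remaining subunits held by all of the polymerases, and their probe sets also name another gene, so neither could be counted. The probe set annotated to Polr2k and LOC100862456 stood at 12.89, 12.40 and 12.89 on KO T6 arrays, against 12.10, 11.82 and 11.85 on KO T0 arrays. It stood at 12.76, 12.59 and 12.83 on WT T6 arrays, against 12.12, 11.89 and 12.11 on WT T0 arrays. Activated arrays lay above quiescent ones in both genotypes, by 0.80 in KO cells (SE 0.16, adjusted p = 0.0121) and 0.69 in WT cells (SE 0.16, adjusted p = 0.0219), with limma and adjustment over 45037 probe sets.

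The probe set annotated to Polr2l and Usp50 stood at 12.46, 12.27 and 12.32 on KO T6 arrays, against 11.94, 12.14 and 11.78 on KO T0 arrays. It stood at 12.37, 12.33 and 12.41 on WT T6 arrays, against 11.53, 11.70 and 11.80 on WT T0 arrays. No activated array overlapped a quiescent one of its genotype; the difference was 0.40 in KO cells (SE 0.13, adjusted p = 0.0919), which did not pass, and 0.70 in WT cells (SE 0.13, adjusted p = 0.00748), which did. Which of the named genes gave these signals was not tested.

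Hexim1, Ccnt2 and Gpn3 are named here because they make up the remaining calls on the companion lists, a choice made after seeing their values. In WT cells Hexim1, an inhibitor of P-TEFb, fell by 0.53 (SE 0.12, adjusted p = 0.0116), Ccnt2, a cyclin of P-TEFb, rose by 0.31 (SE 0.09, adjusted p = 0.0348) and Gpn3, a GTPase of polymerase import, fell by 0.35 (SE 0.10, adjusted p = 0.0258).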
